A study of Mus musculus with 18 samples.

Results

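The Brunner's glands of GLP-1R-/- mice and of wild-type mice were compared 6 h after both had been given exendin-4. The comparison used the 6 arrays whose labels name exendin-4 and 6 h, out of 18 arrays in the series: 3 from knockouts (replicates 13, 14 and 15) and 3 from wild-type animals (replicates 7, 8 and 9). All were male mice of the outbred CD-1 strain, each array held RNA of a single animal, and the glands had been cut out by laser capture. The other 12 arrays came from knockouts and wild types that were either untreated or collected 18 h after exendin-4, with 3 arrays in each group. The labels write the knockout genotype as GLP1-R -/- and give no allele, age, breeding scheme or dose.

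Brunner's glands lie in the submucosa of the duodenum and secrete an alkaline mucus that protects the lining from gastric acid. The receptor for glucagon-like peptide 1 couples to the stimulatory G protein, which raises cyclic AMP and drives transcription through factors of the CREB family. Exendin-4 is a peptide agonist of that receptor. Both genotypes received exendin-4 and were collected at the same time after it. The contrast therefore holds together 2 quantities: a genotype difference that is present without treatment, and any change after treatment that differs between the genotypes. The untreated mice, which share no arrays with the 6 h mice, measure the first separately. The 18 h mice, also separate animals, had received exendin-4 in both genotypes, so their difference again holds both quantities. No group in the labels was given vehicle alone. Within the second quantity, a response to exendin-4 therefore cannot be told apart from effects of injection, handling or collection time that differ between the genotypes.

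Of 17204 genes on the arrays, 12775 passed a filter on dim signals and were tested. Values are log2 signals after RMA, a method that corrects, normalises and summarises the probes of an array. Each row of the table is headed by an Ensembl gene identifier, and no source used here pairs these identifiers with names. Genes are therefore given as numbers of genes and, for 4 of them, by identifier, and no function is given. For the same reason the transcript of the GLP-1 receptor, pathway lists and markers of Brunner's glands or of neighbouring cell types were not analysed here. Neither the genotype nor the tissue label was therefore checked against a gene. In dissected tissue, fewer cells of a type and less RNA per cell cannot be told apart.

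Knockout replicate 13 stood apart from the other arrays. Its signals spanned a narrower range, with an interquartile range of 2.63 on the log2 scale against 2.95 to 3.19 on the other 17 arrays. Regressed on the mean of the other arrays, its values had a slope of 0.857, where the other 17 arrays had slopes between 0.959 and 1.04. Across the tested genes it correlated with the wild-type 6 h arrays between 0.911 and 0.918, while knockout replicates 14 and 15 did so between 0.969 and 0.974. The median SD of a gene was 0.281 among the 3 knockout 6 h arrays and 0.137 among the 3 wild-type 6 h arrays, and it was 0.0953 between knockout replicates 14 and 15. The numbers of calls and the genes given by identifier are therefore reported with and without replicate 13. Recurrence over all 3 genotype comparisons or by size of difference, shared directions, separation of arrays and extreme groups are given with it only.

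**Figure D1:**
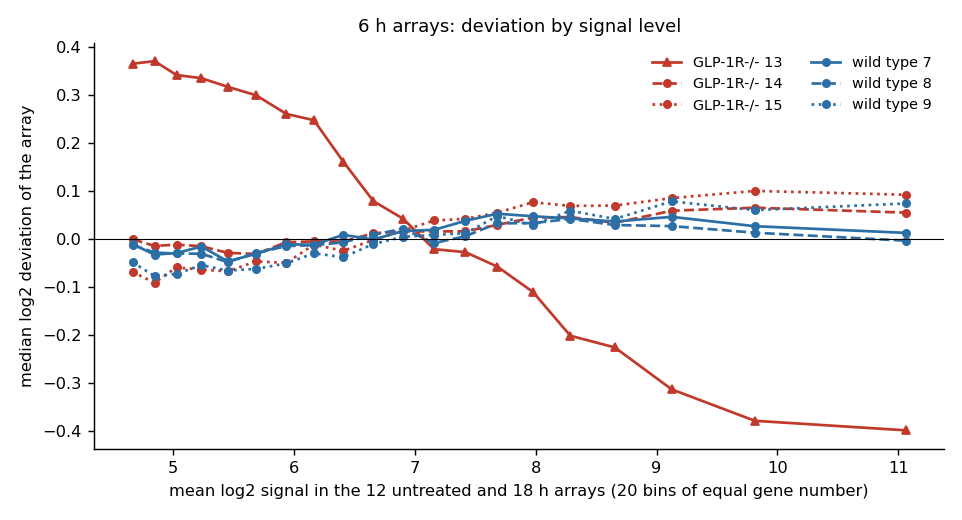
Median log2 deviation of each 6 h array (vertical axis) from the mean of the 12 untreated and 18 h arrays, in 20 bins of equal gene number ordered by that mean (horizontal axis, log2 signal); red lines are GLP-1R-/- arrays and blue lines wild-type arrays. Knockout replicate 13 (triangles) lies 0.365 above the mean in the dimmest bin and falls to -0.40 in the brightest, while the other 5 arrays stay within about 0.1 of 0.

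At 6 h after exendin-4, 775 genes differed between knockout and wild-type glands, which was 6.07% of those tested (limma, adjusted p under 0.05). Of these, 349 were higher in knockouts (2.73% of tested genes) and 426 were lower (3.33%). The median difference of the higher genes was 0.77 on the log2 scale, or 1.70-fold, and that of the lower genes was -0.83, or 1.78-fold. The largest differences were 3.45 upward and -5.29 downward. A difference of at least 4-fold was seen for 8 of the higher genes and 22 of the lower ones, and a difference of 2-fold to under 4-fold for 75 and 114. The remaining 266 higher and 290 lower genes differed by less than 2-fold. All 3 knockout arrays lay on the same side of all 3 wild-type arrays for 342 of the 349 higher genes and 423 of the 426 lower ones. Over all tested genes that was so for 12.7% (knockouts above) and 11.3% (knockouts below). Because the same 6 arrays gave the differences that were called, such separation is favoured by selection and is no separate evidence.

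Without replicate 13 the number of genes was nearly the same, at 787 (6.16% of tested genes), with 384 higher (3.01%) and 403 lower (3.15%), but the membership changed. In both fits 536 genes passed in the same direction, which is 69.2% of the 775. Another 239 genes passed with replicate 13 alone and 251 passed in its absence alone, and no gene passed in opposite directions. The genes that stayed had larger differences (medians 0.82 and -0.89 in the fit with replicate 13) than those that were lost (0.64 and -0.68). Among genes with at least a 4-fold difference, 7 of 8 higher and 21 of 22 lower genes passed without replicate 13.

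The number of calls also depended on the wild-type arrays and on which arrays supplied the spread. It was 420 without wild-type 6 h replicate 7 and 478 without wild-type 6 h replicate 9. Of the 775 genes, 404, 497 and 430 passed again without wild-type 6 h replicates 7, 8 and 9. That is fewer than the 536 without knockout replicate 13. Without knockout replicates 14 and 15, 654 and 639 passed again. A fit to the 6 arrays alone called 98 genes, and the same fit without replicate 13, an alternative chosen after seeing the data, called 695. With each array centred on its own median, 741 genes were called, of which 237 (32.0%) were higher in knockouts, against 45.0% as deposited.

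**Figure D2:**
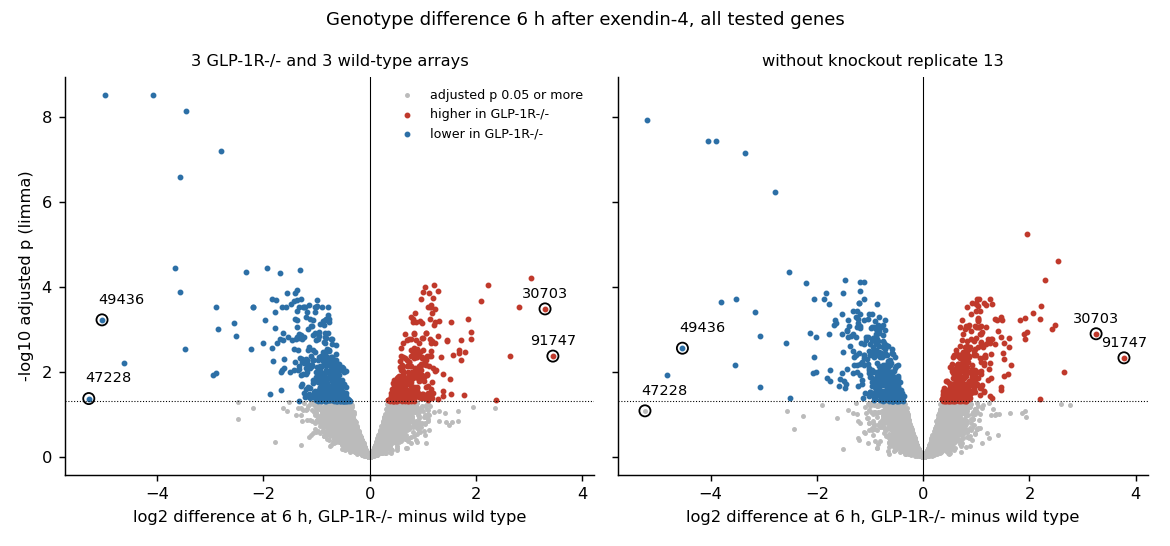
Log2 difference of every tested gene 6 h after exendin-4, GLP-1R-/- minus wild type (horizontal axis), against -log10 of the limma adjusted p (vertical axis), with all 6 arrays (left) and without knockout replicate 13 (right). Red points are the 349 (left) and 384 (right) genes higher in knockouts, blue points the 426 and 403 lower genes, grey points did not pass, the dotted line marks an adjusted p of 0.05 and circles mark the 4 genes described by identifier (last digits).

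The gene that was raised most in knockouts was ENSMUSG00000091747. Its log2 signal was 9.23, 10.36 and 10.09 in knockout replicates 13, 14 and 15, and 8.34, 5.31 and 5.69 in wild-type replicates 7, 8 and 9. All knockout arrays lay above all wild-type arrays, but wild-type replicate 7 lay much closer to the knockouts than the other wild types did. The means were 9.89 ± 0.585 in knockouts and 6.44 ± 1.65 in wild types (SD, n = 3 each), a 10.9-fold difference, which is 3.45 in log2 units (SE 0.651; limma, adjusted p = 0.00428). Without replicate 13 the difference was 3.78 (limma adjusted p = 0.0047), and in a fit to the 6 arrays alone it did not pass (limma adjusted p = 0.103).

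The same gene was high in knockouts that had received no exendin-4. Untreated knockouts had 10.36, 10.22 and 9.44, against 7.30, 5.32 and 5.13 in untreated wild types, a difference of 4.09 (SE 0.651, limma adjusted p = 0.00677). At 18 h the knockouts had 8.78, 9.66 and 9.70, against 6.34, 5.44 and 5.81 in wild types, a difference of 3.52 (limma adjusted p = 0.0119). Across all 9 knockout arrays its signal was between 8.78 and 10.36, above every one of the 9 wild-type arrays, which lay between 5.13 and 8.34. The 6 h difference minus the untreated one was -0.64 (95% interval -2.59 to 1.30, limma adjusted p = 0.823), so a change of the genotype difference with treatment was not detectable within that interval.

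ENSMUSG00000030703 had the next largest rise. Its log2 signal was 8.91, 8.56 and 8.97 in knockout replicates 13, 14 and 15, against 5.43, 5.87 and 5.24 in wild-type replicates 7, 8 and 9. These groups were tight and far apart: the means were 8.81 ± 0.22 in knockouts and 5.51 ± 0.323 in wild types (SD, n = 3 each), a 9.86-fold difference. In log2 units this was 3.30 (SE 0.452; limma, adjusted p = 0.000332), and 3.25 without replicate 13 (limma adjusted p = 0.00128). The call held under all 14 alternatives, with differences between 3.17 and 3.48.

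This gene, too, was higher in knockouts at the other times. Untreated knockouts had 9.41, 8.78 and 8.62, against 5.26, 7.72 and 5.24 in untreated wild types, a difference of 2.87 (limma adjusted p = 0.00677). At 18 h the values were 8.40, 8.60 and 8.55 in knockouts and 5.77, 5.15 and 5.33 in wild types, a difference of 3.11 (limma adjusted p = 0.00214). Wild-type untreated replicate 2, at 7.72, was the only wild-type array near the knockout range of 8.40 to 9.41. The 6 h difference exceeded the untreated one by 0.44 (95% interval -0.92 to 1.79, limma adjusted p = 0.827) and the 18 h one by 0.20 (95% interval -1.16 to 1.55, limma adjusted p = 0.902).

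In the fit with replicate 13 the largest fall belonged to ENSMUSG00000047228, whose call depended on which arrays supplied the spread. Its log2 signal was 6.51, 6.98 and 6.34 in knockout replicates 13, 14 and 15, against 11.23, 11.68 and 12.78 in wild-type replicates 7, 8 and 9. The means were 6.61 ± 0.329 in knockouts and 11.9 ± 0.794 in wild types (SD, n = 3 each), a difference of -5.29 (SE 1.47, limma adjusted p = 0.0427). The wild-type arrays of the other groups, which enter the shared spread, disagreed with each other. Untreated wild types had 13.32, 12.89 and 5.94, and wild types at 18 h had 8.36, 13.74 and 13.08, whereas the 9 knockout arrays all lay between 5.56 and 7.31. Thus 1 of 9 wild-type arrays fell inside the knockout range. The difference kept its sign in all 14 alternatives, between -5.62 and -4.84, but passed in 6 of them. It did not pass without knockout replicate 13 (-5.24, limma adjusted p = 0.0832), without any other single 6 h array (adjusted p between 0.0577 and 0.136), with no filter on dim genes (0.0556) or with a trended, robust prior (0.0556). In a fit to the 6 arrays alone, where the other wild types do not enter the spread, it passed (limma adjusted p = 0.0023). The genotype difference of this gene was -3.70 in untreated mice (limma adjusted p = 0.488). In mice at 18 h it was -5.51 (limma adjusted p = 0.0826).

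ENSMUSG00000049436 had the next largest fall in the fit with replicate 13. Without replicate 13 the largest fall among called genes was -5.21, in a gene not given by identifier. The log2 signal of ENSMUSG00000049436 was 5.22, 8.53 and 4.92 in knockout replicates 13, 14 and 15. It was 10.65, 11.94 and 11.19 in wild-type replicates 7, 8 and 9. Here the knockouts were the variable side, with replicate 14 more than 3 log2 units above the other knockouts and still below every wild type. The means were 6.22 ± 2.01 in knockouts and 11.3 ± 0.648 in wild types (SD, n = 3 each), a difference of -5.04 (SE 0.741, limma adjusted p = 0.000601), and -4.53 without replicate 13 (limma adjusted p = 0.00279). In a fit to the 6 arrays alone it did not pass (limma adjusted p = 0.0644).

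In untreated mice this gene had 7.62, 5.02 and 5.26 in knockouts, against 10.54, 10.45 and 10.72 in wild types, a difference of -4.60 (limma adjusted p = 0.00687). At 18 h the knockouts had 8.46, 8.10 and 7.50, against 10.90, 11.06 and 11.26 in wild types, a difference of -3.05 that did not pass (limma adjusted p = 0.0534) and that passed without 6 h replicate 13 in the shared spread (limma adjusted p = 0.0294). All 9 knockout arrays, between 4.92 and 8.53, lay below all 9 wild-type arrays, between 10.45 and 11.94. The 6 h difference minus the 18 h one was -1.98 (95% interval -4.20 to 0.23, limma adjusted p = 0.395).

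**Figure D3:**
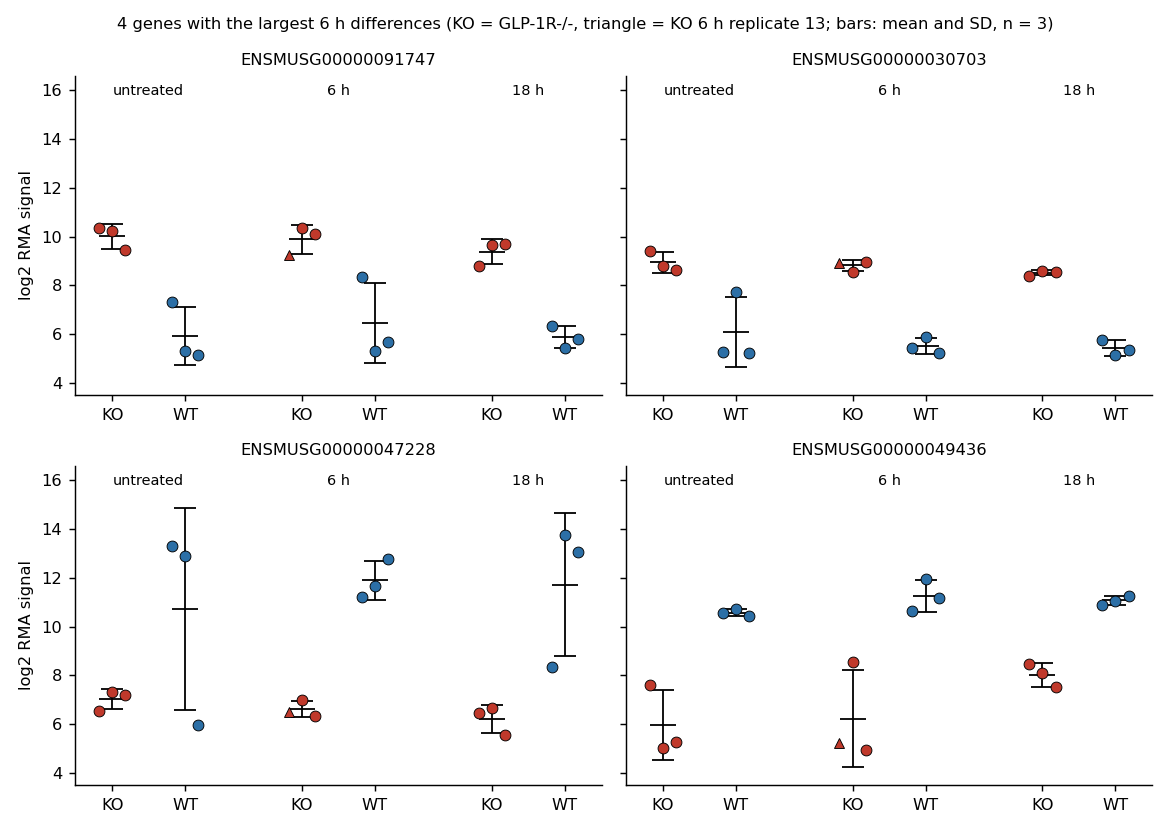
Log2 RMA signal (vertical axis), in every array, of the 2 most raised and the 2 most lowered genes called in the fit with replicate 13. GLP-1R-/- (KO, red) is left of wild type (WT, blue) at each time. Horizontal bars are group means with SD (n = 3) and triangles mark knockout 6 h replicate 13. The genotypes are separate at all times for 3 genes, while ENSMUSG00000047228 has wild-type arrays at 5.94 (untreated) and 8.36 (18 h).

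The genes called at 6 h were spread over the range of signal levels. Genes were ranked by their mean in the 12 untreated and 18 h arrays and divided into 4 bins of equal size. The share called was 2.63% in the dimmest bin, 5.82% in the next, then 8.11%, and 7.70% in the brightest. Only 25 of the 426 lower genes had a knockout mean below 4.79, the level of the filter, and 21 of the 349 higher genes had a wild-type mean below it. Thus few of the called genes had a group mean below the filter level on their lower side. That level is a percentile of the table and not a detection limit, so lower sides above it can still be dim. The dimmest bin reached up to 5.57, and the wild-type 6 h mean of ENSMUSG00000030703 was 5.51.

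Replicate 13 moved calls in a way that depended on level. At the median gene of the dimmest bin it lay 0.39 above the mean of replicates 14 and 15, and in the brightest bin its difference from them was -0.38. The median genotype difference was 0.13 in the dimmest bin and -0.09 in the brightest with replicate 13, and -0.01 and 0.03 without it. In the brightest bin 106 higher and 140 lower genes were called with replicate 13, and 166 higher and 111 lower without it. In the dimmest bin 38 higher and 46 lower genes were called with it, and 25 higher and 68 lower without it.

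The untreated mice showed how much of the 6 h difference was present without exendin-4. In untreated mice 79 genes were called between the genotypes (0.618% of tested genes), 32 higher and 47 lower in knockouts. Measured in the 6 h arrays, 31 of the 32 higher genes were again higher in knockouts, with a median difference of 0.76, and 20 passed the 6 h test. Of the 47 lower genes, 43 were again lower, with a median of -0.50, and 20 passed. No gene passed in the opposite direction with replicate 13 in the fit. Without it, 1 gene called higher at 6 h was called lower in untreated mice. Over all tested genes 56.4% were higher and 43.6% lower in knockouts at 6 h, with a median of 0.05. Without replicate 13 the medians of the 32 and 47 genes were 0.86 and -0.63 at 6 h.

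Seen from the 6 h list, the 40 shared genes were a small part: 5.73% of the 349 higher genes and 4.69% of the 426 lower genes, where 0.25% and 0.368% of all tested genes were called in those directions in untreated mice. They were 62.5% of the 32 and 42.6% of the 47 untreated calls. The 40 shared genes were 61 without 6 h knockout replicate 13, 22 without untreated wild-type replicate 1, 23 without untreated wild-type replicate 2, 26 without untreated knockout replicate 4 and 17 without untreated knockout replicate 5. The 79 untreated calls were 137, 40, 40, 41 and 31 without the same arrays in that order.

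At 18 h 162 genes were called between the genotypes (1.27% of tested genes), 45 higher and 117 lower in knockouts. Of the 45 higher genes 34 were higher at 6 h too, with a median 6 h difference of 0.61, and of the 117 lower genes 89 were lower, with a median of -0.33. In the same direction, 15 higher and 34 lower genes passed at 6 h and at 18 h, or 4.30% and 7.98% of the 6 h lists and 33.3% and 29.1% of the 18 h lists, where 0.352% and 0.916% of tested genes were called at 18 h. Of the genes higher at 6 h, 3 were called lower at 18 h, and 1 gene lower at 6 h was called higher at 18 h. Without 6 h knockout replicate 13 these numbers were 5 and 4. The 49 shared genes were 94 without 6 h knockout replicate 13, 24 without 18 h wild-type replicate 11, 31 without 18 h knockout replicate 17 and 19 without 18 h knockout replicate 18. The 162 calls at 18 h were 427, 52, 75 and 40 without the same arrays in that order, and 82 without 18 h knockout replicate 16.

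Called in all 3 genotype comparisons in the same direction were 21 genes, 9 higher and 12 lower in knockouts. ENSMUSG00000091747 and ENSMUSG00000030703 were among the 9. For the 9 the median difference was 1.29 in untreated mice, 1.28 at 6 h and 1.02 at 18 h, and for the 12 it was -1.50, -1.67 and -1.66. The other extreme was the larger group: 707 of the 775 genes (91.2%) were called at 6 h and at neither other time in that direction. This number does not by itself show that the difference was larger at 6 h, since a difference can miss the threshold at the other times. It was counted with replicate 13 in the shared spread, and larger shares recurred without that array. Of the 384 higher and 403 lower genes called then, 8.07% and 7.44% were also called in untreated mice. At 18 h these shares were 10.7% and 13.2%.

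How often a 6 h difference recurred depended on its size. Among genes at least 4-fold apart at 6 h, 5 of 8 higher and 12 of 22 lower genes were also called untreated or at 18 h in the same direction. Among those 2-fold to under 4-fold apart, 11 of 75 higher and 17 of 114 lower genes were. Among those under 2-fold apart, 10 of 266 higher (3.76%) and 13 of 290 lower genes (4.48%) were. In at least 1 of those comparisons, 0.517% of all tested genes passed as higher and 1.09% as lower. The 22 genes with the largest falls had a median of -1.33 in untreated mice, -2.92 at 6 h and -1.85 at 18 h, and all 22 were lower in untreated knockouts than in untreated wild types. The 290 genes with the smallest falls had a median of -0.10 in untreated mice, -0.72 at 6 h and -0.05 at 18 h. Both the genes and their size classes were chosen on the 6 h difference, which favours larger values at 6 h. The smaller medians at the other times therefore do not by themselves show a change with time, and larger differences pass a threshold more easily.

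**Figure D4:**
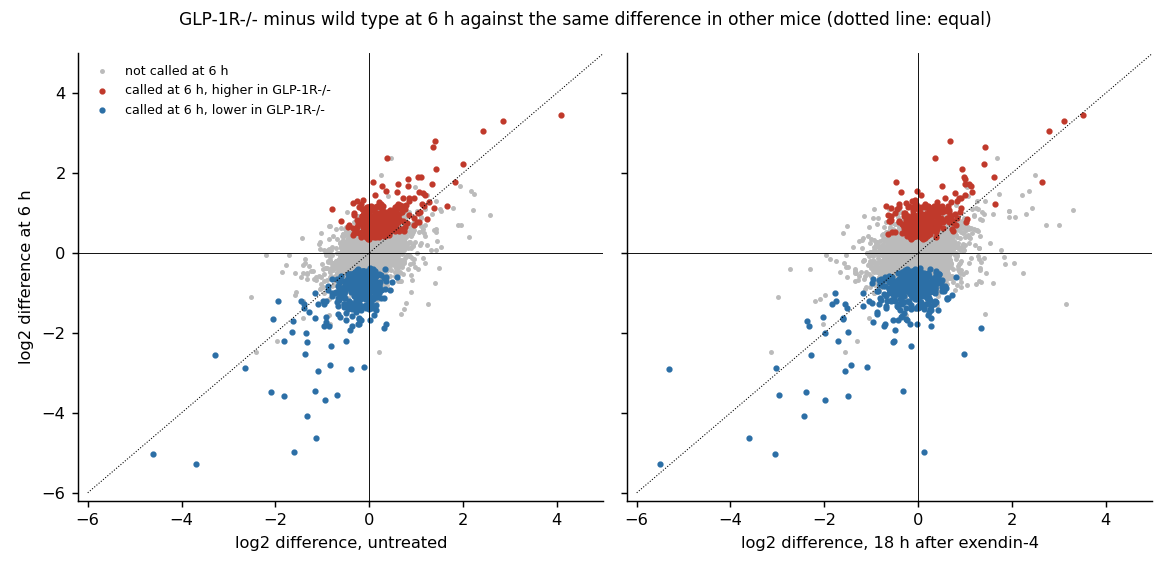
Log2 difference of every tested gene between GLP-1R-/- and wild-type mice at 6 h (vertical axis) against that difference in untreated mice (left) and at 18 h (right); red and blue points are the 349 higher and 426 lower genes called at 6 h, grey points are the rest and the dotted line marks equal differences. Most coloured points lie off the line near 0 on the horizontal axis, with medians of 0.15 and -0.15 untreated and 0.09 and -0.10 at 18 h, and a few lie along the line.

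The direction of the 6 h difference was more frequent among the 775 genes at the other times than among all tested genes, although a shared direction does not show a difference in a single gene. Among the 349 higher genes, 254 (72.8%) were higher in untreated knockouts and 224 (64.2%) at 18 h, where 55.3% and 51.4% of all tested genes were. Among the 426 lower genes, 305 (71.6%) were lower in untreated knockouts and 260 (61.0%) at 18 h, where 44.7% and 48.6% of all tested genes were. The 6 knockout arrays outside 6 h lay above all 6 such wild-type arrays for 37 of the 349 higher genes (10.6%), against 1.14% of tested genes. They lay below for 50 of the 426 lower genes (11.7%), against 1.3% of tested genes. Across the 12775 genes the 6 h and the untreated differences had a Pearson r of 0.407 and a Spearman rho of 0.226 (0.443 and 0.261 without replicate 13). The 6 h and the 18 h differences had 0.289 and 0.0973 (0.371 and 0.197 without it). These describe genes measured on the same arrays, which are not independent replicates.

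The mean of each list was then taken in each array. Both lists were chosen on the 6 h arrays, so the distance of those arrays only describes the lists. For the 426 lower genes the mean deviation from the average of the 6 groups was -0.50, -0.22 and -0.22 in knockout 6 h replicates 13, 14 and 15, and 0.67, 0.66 and 0.76 in wild-type 6 h replicates 7, 8 and 9. The 6 h wild types stood far above every other array. Untreated knockouts were at -0.17, -0.23 and -0.24, against -0.04, 0.10 and 0.09 in untreated wild types, and knockouts at 18 h were at -0.18, -0.26 and -0.25, against -0.04, 0.02 and 0.05 in wild types. Replicates 14 and 15 thus lay among the untreated and 18 h knockouts, and replicate 13 lay below them.

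For the 349 higher genes the wild-type 6 h arrays stood below every other array. The mean deviation was 0.41, 0.25 and 0.27 in knockout 6 h replicates 13, 14 and 15, and -0.54, -0.53 and -0.56 in wild-type 6 h replicates 7, 8 and 9. Untreated knockouts were between 0.10 and 0.20 and untreated wild types between -0.11 and -0.08, and at 18 h knockouts were between 0.15 and 0.20 and wild types between -0.01 and 0.00299. In this list all 3 knockout 6 h arrays, replicates 14 and 15 included, lay above the untreated and 18 h knockouts. The 6 h arrays chose these genes, so their own distance is a description. The arrays of the other times entered the filter and the shared spread behind the calls, but not the 6 h means. Knockouts and wild types did not overlap there in either list.

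**Figure D5:**
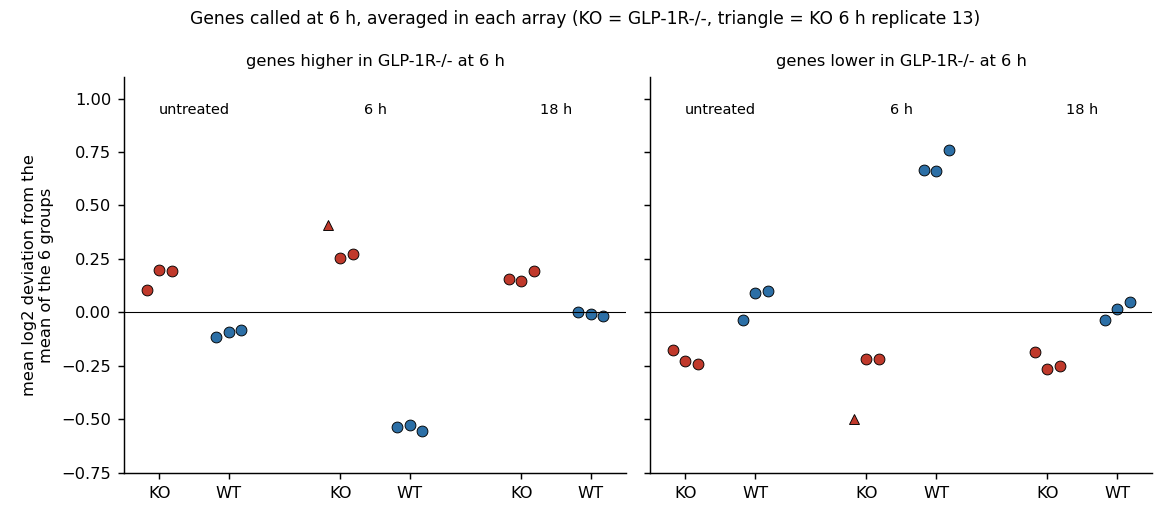
Mean log2 deviation of the 349 genes higher in GLP-1R-/- at 6 h (left) and the 426 lower ones (right) from the average of the 6 groups, 1 point per array (vertical axis), with GLP-1R-/- (KO, red) left of wild type (WT, blue) at each time; the triangle is knockout 6 h replicate 13. The wild-type 6 h arrays are at -0.56 to -0.53 (left) and 0.66 to 0.76 (right), farther from 0 than any other array. The genes were chosen on the 6 h arrays, which favours such a distance. At the untreated and 18 h times knockouts and wild types do not overlap.

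Gene by gene the same group was most often the extreme. The wild-type 6 h mean was the highest of the 6 group means for 388 of the 426 lower genes (91.1%), and the knockout 6 h mean was the lowest for 175 (41.1%). For the 349 higher genes the wild-type 6 h mean was the lowest for 309 (88.5%), and the knockout 6 h mean was the highest for 173 (49.6%). Over all tested genes the wild-type 6 h mean was highest for 23.2% and lowest for 25%, and the knockout 6 h mean for 26% and 16%. Choosing genes by the 6 h difference favours a 6 h group as the extreme. The shares in the lists are therefore a description and exceed those of all tested genes partly by selection.

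The change of each genotype from its own untreated mice was set beside the genotype difference. These changes share the 6 h arrays with the genotype comparison, so the values describe the lists and are no separate evidence. For the 426 lower genes the median change at 6 h was -0.09 in knockouts (0.01 without replicate 13) and 0.57 in wild types. For the 349 higher genes it was 0.15 in knockouts (0.09 without replicate 13) and -0.38 in wild types. Over all tested genes the medians were 0.04 in knockouts and 0.02 in wild types. Of the 12775 tested genes, 0 passed for the knockout change, with a smallest limma adjusted p of 0.256 (0.787 without replicate 13). For the wild-type change 433 passed, and 880 without replicate 13 in the shared spread. A gene that did not pass can still have changed.

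Whether the 6 h genotype difference itself differed from the untreated one was tested in the shared fit. It did for 48 genes (0.376% of tested genes; limma, adjusted p under 0.05), with a difference more positive at 6 h for 18 (0.141%) and more negative for 30 (0.235%). For the 30 genes the median genotype difference was -1.15 at 6 h and 0.05 in untreated mice, and for the 18 genes it was 0.98 and -0.22. The genotype difference was larger in size at 6 h for 15 of the 18 and for all 30. It had the opposite sign in untreated mice for 14 of the 18 and 19 of the 30. Selection on the difference draws on both the 6 h and the untreated arrays, which favours opposite signs, so these values describe the genes. None of the 4 genes given by identifier was among the 48. The 48 genes were 109 without 6 h knockout replicate 13, 18 without untreated wild-type replicate 1, 29 without untreated wild-type replicate 2, 17 without untreated knockout replicate 4, 30 without 6 h wild-type replicate 7 and 27 without 6 h wild-type replicate 9. In all 48 the call was kept without replicate 13. A fit to the 4 groups alone called 12.

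Against 18 h the 6 h genotype difference was different for 197 genes (1.54% of tested genes; limma, adjusted p under 0.05), more positive at 6 h for 84 (0.658%) and more negative for 113 (0.885%). The 113 genes had a median genotype difference of -0.85 at 6 h and 0.28 at 18 h, and the 84 genes had 0.66 and -0.40. For 95 of the 113 and 71 of the 84 the difference had the opposite sign at 18 h, and it was larger in size at 6 h for 96 and 54. Selection on the difference draws on both times, which favours opposite signs. The 197 genes were 284 without 6 h knockout replicate 13, of which 180 were among the 197. The number was 112 without 6 h wild-type replicate 7, 97 without 6 h wild-type replicate 9, 124 and 99 without 18 h wild-type replicates 10 and 11, and 96, 92 and 87 without 18 h knockout replicates 16, 17 and 18. A fit to the 4 groups alone called 108.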

How the data were processed

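RNA of laser-captured Brunner's glands from 18 male mice was measured on 18 arrays, 3 in each of 6 groups taken from the labels. Per the labels' protocols, RNA was isolated with TRIzol, cleaned on MinElute columns and labelled by Affymetrix in vitro transcription with biotin. The authors deposited log2 values from RMA, as the submitters' processing notes name it; its version, the array model and the probe sets are not given in the sources. RMA gives no detection call and compresses differences of dim genes. Arrays have no read depth, and their number limits the precision.

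Genes were tested where 3 or more of 18 arrays exceeded 4.79, which is percentile 30 of the whole table (12775 of 17204). With limma 3.58.1 (R 4.3.3; lmFit, eBayes) a model with a mean per group was fitted to all 18 arrays, with two-sided p-values and Benjamini-Hochberg adjustment over the 12775 genes. Differences are GLP-1R-/- minus wild type. The fit was tested on simulated data with independent noise, whose spread was set for each gene and array. That noise left out the dependence on signal level seen in knockout 6 h replicate 13, so the simulation does not cover it. The alternatives were filters, array weights, scaling, the prior, the arrays fitted and each array left out. The labels give no batch, and no replicate number is shared between groups.

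The naming rule took the 2 largest rises and the 2 largest falls among called genes whose 6 h groups did not overlap; its parts that need gene names, and the gene lists, were not applied, since 0 of 49997 rows of the reference table (GRCm38.p6) carried an Ensembl identifier. Promoter sequences were not used here for the same reason. The comparison and lists were chosen with earlier results of these data known.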

Additional observations from a re-analysis of the deposited data

Results flagged for a closer look

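The genotype difference at 6 h differed from that in untreated mice for 48 genes, by the test of the difference itself (limma, adjusted p under 0.05). Their differences between the times ran from 0.84 to 1.57 on the log2 scale for 18 genes and from -3.38 to -0.80 for 30 genes.

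The genotype difference at 6 h differed from that at 18 h for 197 genes by the same test. The differences ran from 0.63 to 2.40 for 84 genes and from -5.12 to -0.69 for 113 genes. With 3 arrays in a group, single arrays were not tested as outliers.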

How the results depend on the processing

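No paired analysis was possible because no replicate number is shared between groups. Calls of the 6 h genotype difference (775) kept within 1.5 times under 10 of 14 alternatives; with limma's array weights, which gave knockout 6 h replicate 13 a weight of 0.084, there were 2293, of which 768 were shared with the 775, and in a fit to the compared groups alone 98. With array weights the untreated genotype difference had 177 calls, the 18 h one 1589, the difference of 6 h from untreated 284 and that of 6 h from 18 h 1512. Fitted to the compared groups alone, the 18 h genotype difference had 347 calls and the 2 differences between times 12 and 108, in the same order. With 1 array left out in turn the calls ranged from 420 to 1004 for the 6 h genotype difference, 31 to 137 for the untreated one and 40 to 427 for that at 18 h, and from 17 to 109 and 87 to 284 for the differences of 6 h from untreated and from 18 h. Of the 4 genes given by identifier, 0 changed sign under any of 14 alternatives each. The calls of ENSMUSG00000091747 and ENSMUSG00000049436 were lost only in the fit to the compared groups alone, and that of ENSMUSG00000047228 under 8 alternatives. Genes shared with the untreated list ranged from 17 to 114 and those shared with the 18 h list from 19 to 376 over 19 alternatives, highest with array weights. The cause of these shifts was not tested. RMA's background step limits what can be said of dim genes.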
